A study of Mus musculus with 9 samples.

Results

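Activity-dependent transcription in the hippocampus was followed through 10 genes of 3 transcription factor groups, taken by symbol from the 47643 genes of the deposited count matrix. They were the orphan nuclear receptors Nr4a1, Nr4a2 and Nr4a3, the MADS-box factors Mef2a, Mef2c and Mef2d, and the CREB group with Creb1, Creb3l3, the acetyltransferase gene Crebbp and the coactivator gene Crtc1. All 10 matched a gene and all 10 passed the filter on low counts in each comparison. The study sequenced poly-A RNA of the hippocampus of mice at 6 weeks of age, with 3 libraries per group. The control group, MRL/mpj, is labelled wild type and untreated. The MRL/lpr group carries the lpr mutation of Fas, an insertion that leaves lymphocyte apoptosis defective, and was untreated. The third group, MRL/lpr+MSC, has the MRL-lpr genotype and received mesenchymal stem cells. The source, dose, route and timing of these cells are not given in the sources used here. The labels name C57BL/6 as the strain of every library, whereas the study's methods name MRL/MpJ and its Fas lpr substrain. The study's description of these data treats every MRL/mpj and MRL/lpr library as a single mouse, and for the treated libraries neither the labels nor that description says so.

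The total count per library ran from 19475804 to 26912031, and no pair of libraries in a group differed by as little as sampling noise. Levels are given as CPM, the count scaled to library size with TMM factors over the 9 libraries, and each group mean is followed by its SD over 3 libraries. The lpr label could not be checked by the level of Fas, since the total count over the gene gave 1.83 ± 0.183 CPM in MRL/mpj, 1.80 ± 0.469 in MRL/lpr and 1.31 ± 0.445 in MRL/lpr+MSC mice (SD, n = 3 each). The labels of both lpr groups were compared with a table of scaled values that accompanies the study. Each MRL/mpj column divided by the counts of its own library gave 1 constant in 100% of the genes compared, at a tolerance of 0.001. The columns headed MRL/lpr gave such a constant with libraries labelled as treated in 100% of the genes, and with any library labelled as untreated MRL/lpr in at most 1.01%. The labels of both lpr groups may therefore be exchanged. Groups are called here as the labels call them. Under an exchange, the signs of the comparison between the lpr groups would turn and the comparisons of each with MRL/mpj would trade places.

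The NR4A receptors bind DNA without a known natural ligand and are immediate early genes, switched on in neurons within a short time of synaptic activity. Calcium entry through NMDA receptors activates kinases that phosphorylate CREB, and CREB with its coactivators CRTC1 and CBP drives early genes that carry cAMP response elements (CRE), Nr4a genes among them. MEF2 proteins answer to the same calcium signal through calcineurin and class IIa histone deacetylases, and they regulate synapse number. In the hippocampus these factors are known for their part in memory formation and the maintenance of dendritic spines.

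The promoters of the NR4A genes are shown because the 3 share a feature with each other. Each sequence is RefSeq's on GRCm38.p6, from 250 bases before the RefSeq start and on the strand of the gene. Capitals mark the CRE half-site TGACG on either strand, so that CGTCA marks it on the opposite one, and in Nr4a2 also the MEF2 element. The Nr4a1 window lies at chr15:101266596-101266845 on the plus strand, inside the gene's span and outside its annotated exons. The Nr4a2 window lies at chr2:57124004-57124253 on the minus strand, directly before the gene. The Nr4a3 window at chr4:48045055-48045304 overlaps the annotated transcript, and its first 98 bases, chr4:48045055-48045152 on the plus strand, are printed.
Nr4a1: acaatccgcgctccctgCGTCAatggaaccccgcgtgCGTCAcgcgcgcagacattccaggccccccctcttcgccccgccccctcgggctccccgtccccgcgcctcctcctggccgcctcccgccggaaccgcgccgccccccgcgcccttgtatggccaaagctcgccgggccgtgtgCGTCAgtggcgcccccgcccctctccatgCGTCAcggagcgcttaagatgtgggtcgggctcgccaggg
Nr4a2: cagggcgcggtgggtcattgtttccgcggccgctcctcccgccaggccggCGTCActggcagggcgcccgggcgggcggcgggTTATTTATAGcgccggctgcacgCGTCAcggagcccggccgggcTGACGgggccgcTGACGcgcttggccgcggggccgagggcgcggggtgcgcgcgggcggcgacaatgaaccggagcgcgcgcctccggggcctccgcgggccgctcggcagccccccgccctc
Nr4a3: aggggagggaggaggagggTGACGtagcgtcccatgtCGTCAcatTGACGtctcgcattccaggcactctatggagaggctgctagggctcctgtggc
All 3 NR4A windows held 4 CRE half-sites, of which the printed stretch of Nr4a3 holds 3. Among 32851 RefSeq promoter windows of the same 250 bases, 17.8% held at least 1 half-site and 0.137% held 4 or more. The palindromic full element TGACGTCA, which contains the half-site on both strands, was in none of the 3 windows and in 1.55% of all. The NR4A response element AAAGGTCA was also in none of the 3 and in 1.34% of all windows. The MEF2 element was in the Nr4a2 window, 167 to 158 bases before the start, and in 2.92% of all windows. No half-site was found in the windows of Mef2a, Mef2c, Mef2d, Creb1, Crebbp and Crtc1, and Creb3l3 had 1 in 1 of its 2 windows. All 250 bases of the Crebbp window and 159 of the 250 of the Creb1 window lie in annotated exons. These matches describe letters in the windows only.

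Levels of different genes were compared per length, with the authors' FPKM values. In MRL/lpr+MSC mice the order of the mean FPKM was Mef2d (39.2), Crtc1 (22.4), Nr4a1 (20.3), Nr4a3 (16.0), Mef2a (15.1), Nr4a2 (11.1), Mef2c (10.9), Creb1 (5.33), Crebbp (5.03) and Creb3l3 (0.164). Mef2d stood apart, with 38.0 to 40.9 FPKM against at most 24.1 for Crtc1. From Crtc1 down to Mef2c every gene overlapped its neighbour in the order, and so did Creb1 and Crebbp. Nr4a2 ranged from 5.29 to 17.6 FPKM across the treated libraries, so its lowest library was at the level of Creb1 and its highest at the level of Mef2a. In MRL/mpj mice Nr4a1 came second with 28.0 FPKM and Nr4a2 sixth with 14.2, whereas in MRL/lpr mice Nr4a2 had 5.54 FPKM and overlapped both Creb1 (5.39) and Crebbp (5.08). Creb3l3, which encodes a membrane-bound factor best known in the liver, was the lowest in every group.

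Nr4a2 (ENSMUSG00000026826, chr2:57106830-57124003, GRCm38), also known as Nurr1, varied most among the treated libraries. It had 71.0, 42.1 and 21.5 CPM in MRL/lpr+MSC replicates 1, 2 and 3. The MRL/lpr libraries had 25.3, 22.2 and 20.4 CPM and the MRL/mpj libraries 60.0, 61.3 and 51.4 CPM. One treated library thus lay above all controls, one between the groups and one inside the range of the untreated MRL/lpr libraries. The SD of the treated group was 24.9 CPM, against 2.48 in MRL/lpr and 5.41 in MRL/mpj mice. In bulk RNA, fewer cells of a type and less RNA per cell cannot be told apart, here and for every gene that follows.

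Nr4a3 (ENSMUSG00000028341, chr4:48045153-48086447), or Nor1, followed the same order among the treated libraries. It had 127, 90.7 and 69.7 CPM in MRL/lpr+MSC replicates 1, 2 and 3, against 77.5, 91.9 and 45.7 CPM in MRL/lpr and 132, 105 and 127 CPM in MRL/mpj mice. The treated libraries overlapped both other groups, and the MRL/lpr libraries lay below all MRL/mpj libraries. Nr4a1 (ENSMUSG00000023034, chr15:101254269-101274795), or Nur77, showed another order. It had 38.8, 59.9 and 52.5 CPM in the treated libraries, 42.2, 32.6 and 49.9 CPM in MRL/lpr and 90.4, 69.1 and 48.2 CPM in MRL/mpj mice. The treated library with the most Nr4a2 and Nr4a3 had the least Nr4a1, and all 3 groups overlapped. The ratio of Nr4a2 to Nr4a1 CPM was accordingly 1.83 in MRL/lpr+MSC replicate 1 and 0.703 and 0.409 in replicates 2 and 3. It ran from 0.409 to 0.682 in MRL/lpr and from 0.664 to 1.07 in MRL/mpj mice, so that replicate 1 was above every other library.

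**Figure D1:**
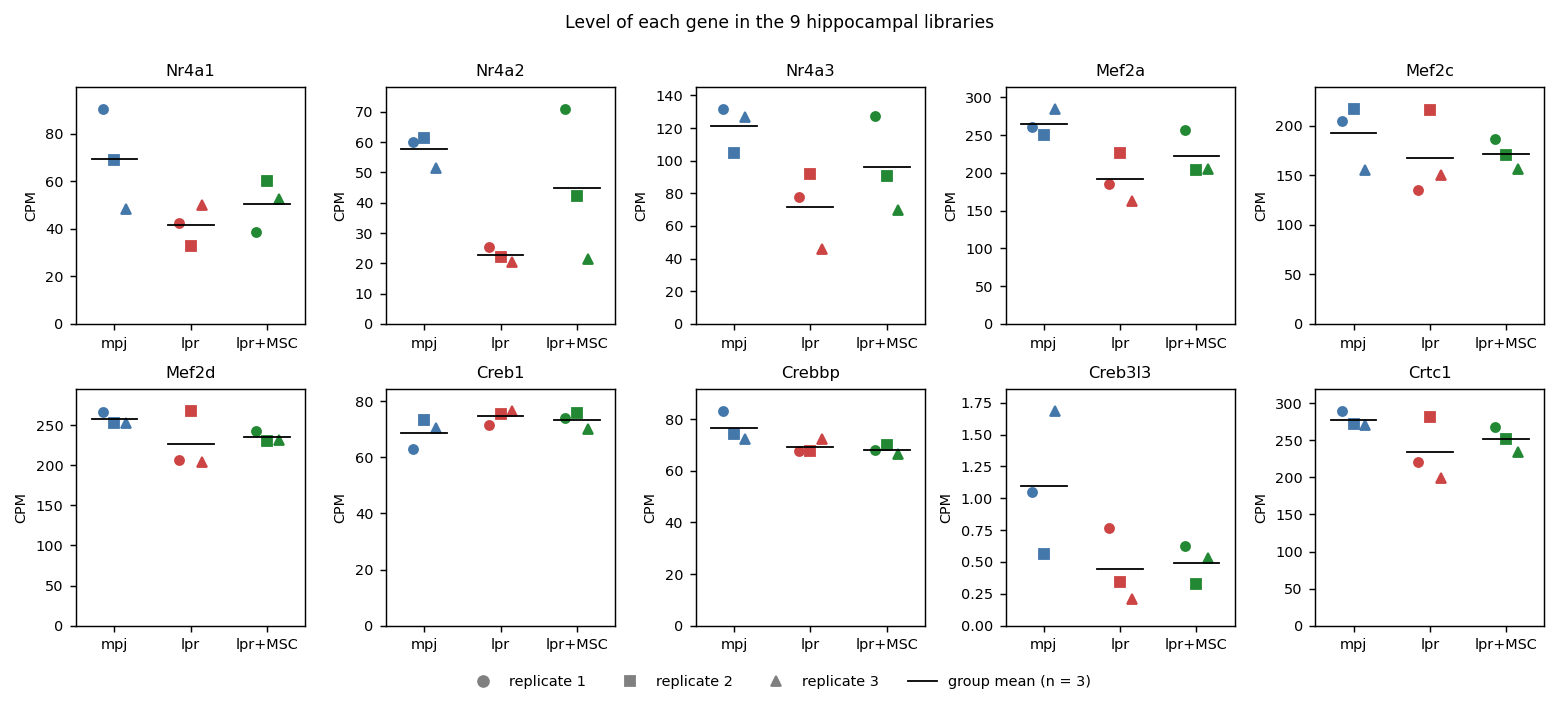
CPM (y axis, linear from 0) of the 10 genes in the 9 hippocampal libraries, by group (x axis), with a symbol for each replicate number and a line at the group mean (n = 3). Nr4a2 is tight at 20.4 to 25.3 CPM in MRL/lpr mice and spread from 21.5 to 71.0 CPM in MRL/lpr+MSC mice.

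Among the MEF2 genes, Mef2a (ENSMUSG00000030557, chr7:67231163-67372858) came nearest to this pattern. It had 256, 204 and 206 CPM in the treated libraries, 185, 226 and 163 CPM in MRL/lpr and 261, 249.9 and 285 CPM in MRL/mpj mice. MRL/lpr+MSC replicate 1 was within the control range and the other treated libraries were below it. Mef2d (ENSMUSG00000001419, chr3:88142372-88172086), the most abundant member per length, had 243, 230.1 and 231 CPM in the treated libraries and 266, 253 and 253 CPM in MRL/mpj mice. These groups did not overlap, while MRL/lpr mice spanned both with 207, 268 and 204 CPM. Mef2c (ENSMUSG00000005583, chr13:83504034-83667080), which is needed for the normal number of hippocampal synapses, had 186, 170.4 and 157 CPM in the treated libraries, 135, 216 and 150.1 CPM in MRL/lpr and 204, 217 and 156 CPM in MRL/mpj mice. All 3 groups overlapped for Mef2c. Mef2a overlaps the antisense gene Lysmd4, and Mef2d overlaps 1700113A16Rik. Whether the counting used strand is not given in the sources used here, so the values of both are uncertain to that extent.

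In the CREB group Creb1 and Crebbp varied little between libraries, with the highest library of a group at most 1.17 times its lowest, while Creb3l3 reached 3.64 times. Creb1 (ENSMUSG00000025958, chr1:64532645-64604548), which encodes CREB itself, had 74.0, 75.7 and 70.3 CPM in the treated libraries, 71.6, 75.3 and 76.7 CPM in MRL/lpr and 62.9, 73.3 and 70.3 CPM in MRL/mpj mice. Its 3 groups overlapped. Crebbp (ENSMUSG00000022521, chr16:4081328-4213997), which encodes the acetyltransferase CBP and overlaps Gm37186, had 68.1, 70.2 and 66.45 CPM in the treated libraries, 67.7, 67.7 and 72.5 CPM in MRL/lpr and 83.4, 74.4 and 72.4 CPM in MRL/mpj mice. The treated libraries lay below the controls without overlap, by 2.24 CPM at the nearest pair. Crtc1 (ENSMUSG00000003575, chr8:70382355-70439579), the coactivator that enters the nucleus with synaptic activity, had 267, 251 and 235 CPM in the treated libraries, 220.1, 282 and 199.8 CPM in MRL/lpr and 290.2, 272 and 270.02 CPM in MRL/mpj mice. Here too the treated libraries lay below the controls, by 2.56 CPM at the nearest pair, and the MRL/lpr libraries spanned both. Creb3l3 (ENSMUSG00000035041, chr10:81084324-81098874) rested on few reads, with counts of 12, 7 and 12 in the treated, 22, 8 and 5 in the MRL/lpr and 21, 13 and 31 in the MRL/mpj libraries, and its groups overlapped.

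MRL/lpr+MSC mice were compared with untreated MRL/lpr mice to ask whether stem cell treatment moved these genes. None of the 10 was differentially expressed, that is, past an adjusted p of 0.05 with a change of 1.5-fold or more, and none of the 10 had groups without overlap (background: 0% of the 16758 genes tested called, 10% without overlap). By limma voom with Benjamini-Hochberg adjustment, 0 genes of the whole transcriptome passed, the smallest adjusted p being 0.921. At an unadjusted p under 0.05 there were 647 genes, and limma-trend gave 0 and 685. The log2 fold change of Nr4a2 was 0.81 (standard error 0.425, 95% confidence interval -0.22 to 1.83; limma voom with Benjamini-Hochberg adjustment, adjusted p = 0.921), higher than 99.3% of the genes tested. It was 0.40 without MRL/lpr+MSC replicate 1 and 1.27 without MRL/lpr+MSC replicate 3. Nr4a3 had a log2 fold change of 0.44 (95% confidence interval -0.32 to 1.20) and Nr4a1 of 0.28 (-0.24 to 0.80). Dropping any single library moved Nr4a3 between 0.15, without MRL/lpr replicate 3, and 0.65, without MRL/lpr+MSC replicate 3. Nr4a1 moved between 0.12, without MRL/lpr replicate 2, and 0.45, without MRL/lpr+MSC replicate 1.

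The intervals of the remaining members show what size of change could still lie in the data. Mef2a had a log2 fold change of 0.22 (95% confidence interval -0.14 to 0.58), while Mef2c and Mef2d had 0.06 and 0.07. For Creb1 the value was -0.02 (-0.19 to 0.15), and for Crebbp -0.02 (-0.19 to 0.15). The upper bounds correspond to a 1.11-fold higher level of either gene in treated mice. Crtc1 had 0.12 (-0.21 to 0.45). Creb3l3 had 0.26 with an interval of -1.02 to 1.55, so that at its counts of 5 to 22 in these libraries the interval holds changes past 1.5-fold in both directions. Of the 10 members, 8 had a positive value, beside 49% of all genes, with a median of 0.17 beside -0.00 (-0.004) over all genes tested.

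Against MRL/mpj mice, the treated libraries had lower mean levels of 9 of the 10 members, and none passed the test. Over all 16196 genes tested, 5.01% passed an adjusted p under 0.05 and 3.43% were differentially expressed, 313 higher and 243 lower, while 48.3% had a negative log2 fold change. Mef2d, Crebbp and Crtc1 lay below the controls without overlap, 3 of 10 beside 14.4% of all genes. The log2 fold changes of the NR4A genes were -0.54 for Nr4a2 (95% confidence interval -1.46 to 0.39), -0.43 for Nr4a1 (-1.03 to 0.18) and -0.37 for Nr4a3 (-0.88 to 0.14). Nr4a2 went to -0.94 without MRL/lpr+MSC replicate 1 and to -0.09 without MRL/lpr+MSC replicate 3. Nr4a3 ranged from -0.60 to -0.18 without the same libraries, while for Nr4a1 the lowest value was -0.67 (MRL/mpj replicate 3 left out) and the highest -0.22 (MRL/mpj replicate 1 left out). For Mef2a the value was -0.26 (standard error 0.107; limma voom with Benjamini-Hochberg adjustment, adjusted p = 0.21). Without MRL/lpr+MSC replicate 1, Mef2a (-0.37, adjusted p = 0.0164) and Nr4a3 (-0.60, adjusted p = 0.0382) passed the threshold of limma voom with Benjamini-Hochberg adjustment. The values of Mef2d (-0.13), Crtc1 (-0.14) and Crebbp (-0.16) were small although their groups did not overlap. Creb1 was the 1 member with a positive value, 0.10.

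In MRL/lpr against MRL/mpj mice, which share their controls with the comparison above, Nr4a2 was the 1 member of 10 that was differentially expressed, where 9.3% of the 16697 genes tested passed an adjusted p under 0.05 and 5.79% were differentially expressed. It was 2.53-fold lower, with a log2 fold change of -1.34 (standard error 0.112; limma voom with Benjamini-Hochberg adjustment, adjusted p = 0.0025), between -1.43 and -1.27 when any single library was dropped. Of 13 other settings 12 also called it, the exception being the fit of all 9 libraries together, in which the spread of the treated libraries enters (adjusted p = 0.0564, limma voom with Benjamini-Hochberg adjustment). Lower by at least 1.5-fold with an adjusted p under 0.05 were 2.38% of all genes. Of the 10 members 9 had a negative value, beside 47.2% of all genes, and Nr4a2, Nr4a3 and Mef2a lay below the controls without overlap, 3 of 10 beside 18.5%. For the other NR4A genes and Mef2a, limma voom with Benjamini-Hochberg adjustment gave -0.81 (adjusted p = 0.0925) for Nr4a3, -0.71 (adjusted p = 0.122) for Nr4a1 and -0.48 (adjusted p = 0.0592) for Mef2a. Without MRL/lpr replicate 2, 5 members passed, namely Nr4a2, Nr4a3, Mef2a, Mef2d and Crtc1. Nr4a2 and Nr4a3 passed without MRL/lpr replicate 3. Set side by side, the log2 fold changes from MRL/mpj of the untreated and of the treated lpr mice were -1.34 and -0.54 for Nr4a2, -0.81 and -0.37 for Nr4a3, -0.71 and -0.43 for Nr4a1, and -0.48 and -0.26 for Mef2a. For Creb1 they were 0.12 and 0.10, and for Crebbp -0.14 and -0.16. Mef2c had -0.22 and -0.15, Mef2d -0.19 and -0.13, Crtc1 -0.26 and -0.14, and Creb3l3 at its low counts -1.25 and -0.99, none past the threshold.

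**Figure D2:**
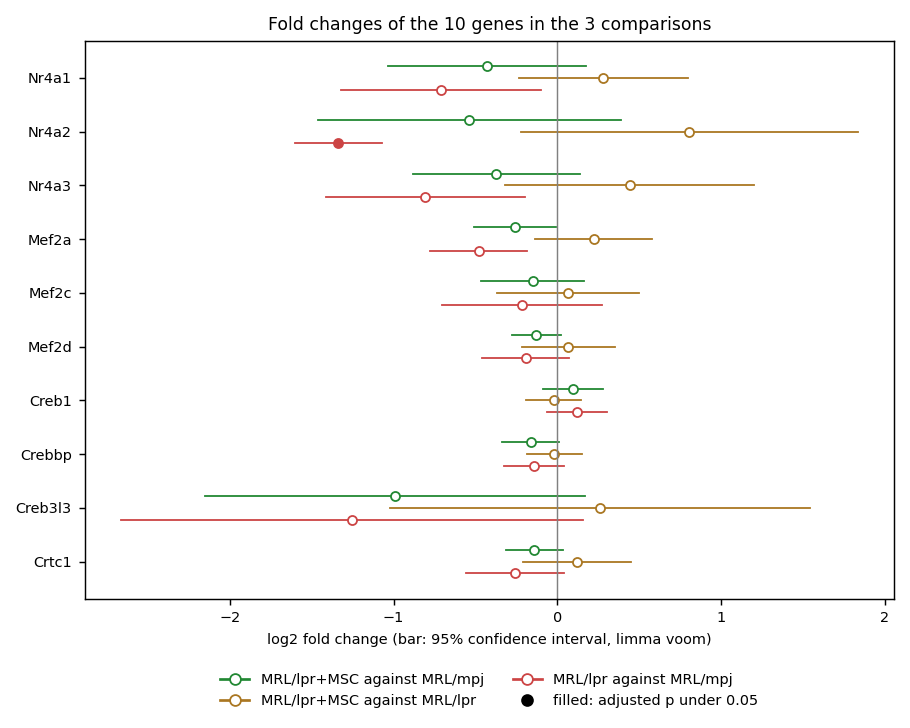
Log2 fold change (x axis) of the 10 genes (y axis) in the 3 comparisons, with 95% confidence intervals from limma voom; a filled point has an adjusted p under 0.05. Nr4a2 in MRL/lpr against MRL/mpj is the 1 filled point, and all 10 intervals of the comparison between the lpr groups include 0.

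The lists of pathway genes are read beside the share of all genes that passed in each direction, which was 2.48% higher and 2.54% lower in MRL/lpr+MSC and 4.33% higher and 4.97% lower in MRL/lpr mice, both against MRL/mpj. The inputs to CREB were described by a list of 29 channels, kinases, phosphodiesterases and adenylyl cyclases. In MRL/lpr+MSC against MRL/mpj mice 1 rose and 2 fell, with a median log2 fold change of -0.06 beside 0.01 over all genes. Grin1, which encodes the obligatory GluN1 subunit of the NMDA receptor, fell by 0.44 on the log2 scale (limma voom with Benjamini-Hochberg adjustment, adjusted p = 0.0267). Camk2b, a subunit of calcium/calmodulin kinase II, fell by 0.40, and its relative Camk2d rose by 1.11. In MRL/lpr against MRL/mpj mice 3 genes fell and none rose, with a median of -0.16 beside 0.02. The largest of these falls was that of Camk4, the nuclear kinase that phosphorylates CREB, from 220.5 ± 29 to 96.9 ± 20.4 CPM (SD, n = 3 each) (log2 fold change -1.20; limma voom with Benjamini-Hochberg adjustment, adjusted p = 0.0136). Grin1 fell by 0.62 and the NMDA receptor gene Grin2b by 0.56. Between the lpr groups no gene of the list passed, and the log2 fold change of Grin1 was 0.18.

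Calcineurin subunits made up most of the MEF2 partners that fell. Of 12 genes tested on a list of calcineurin subunits, their regulators, class IIa deacetylases and Mapk7, 2 fell in MRL/lpr+MSC and 4 in MRL/lpr mice against MRL/mpj, and none rose in either. Ppp3r1, the regulatory subunit of calcineurin, fell by 0.56 in treated and by 0.71 in untreated lpr mice, and Ppp3ca, a catalytic subunit, fell by 0.52 and by 0.54 (limma voom with Benjamini-Hochberg adjustment, adjusted p = 0.0333, 0.0116, 0.0233 and 0.0446 in that order). In MRL/lpr mice Ppp3cb, another catalytic subunit, and Hdac4, a deacetylase that represses MEF2, fell by 0.38 and by 0.39. The medians of the list were -0.17 and -0.22, and 0.05 between the lpr groups, where none passed. Of the 14 other CREB family genes and coactivators, Creb3l1, an endoplasmic reticulum factor, rose by 1.17 in MRL/lpr mice against MRL/mpj (limma voom with Benjamini-Hochberg adjustment, adjusted p = 0.0337) and no other passed. None of the 14 passed in MRL/lpr+MSC mice against MRL/mpj, with a median of 0.04, the smallest p being that of Creb5 at a log2 fold change of 0.85.

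Among 12 nuclear receptors related to or partnered with the NR4A group, 3 fell in MRL/lpr+MSC mice against MRL/mpj. They were the circadian repressors Nr1d1 (-0.71) and Nr1d2 (-0.45) and the mineralocorticoid receptor Nr3c2 (-0.44). In MRL/lpr mice Nr1d1 and Nr1d2 fell by 0.72 and 0.56, while Nr2f2, or COUP-TFII, rose by 0.80 and Rxrg, a retinoid X receptor, rose by 2.17 (limma voom with Benjamini-Hochberg adjustment, adjusted p = 0.0131 and 0.0482). Nr3c2, Nr2f2 and Rxrg each passed in 1 lpr group only, but their means lay on the same side of MRL/mpj in both. In treated, untreated and MRL/mpj mice Rxrg had 3.63 ± 2.19, 3.05 ± 1.38 and 0.641 ± 0.214 CPM (SD, n = 3 each). Nr2f2 had 21.1 ± 10.8, 16.1 ± 0.751 and 9.28 ± 0.901 CPM, and Nr3c2 had 201 ± 19.6, 205 ± 45.4 and 273 ± 4.82 CPM (SD, n = 3 each). The median of the list was 0.11 in treated and -0.17 in untreated lpr mice. Nr1d1 and Nr1d2 also stand on a list of 11 genes with E-box elements that the molecular clock drives, which had medians of -0.47 in treated and -0.56 in untreated lpr mice against MRL/mpj. On it 4 and 7 genes fell and none rose. Dbp, a clock output factor, fell by 1.25 in treated and by 1.23 in untreated mice (limma voom with Benjamini-Hochberg adjustment, adjusted p = 0.00107 and 6.42e-04). Ciart, a clock repressor, fell by 1.54 in treated and by 1.5 in untreated mice (limma voom with Benjamini-Hochberg adjustment, adjusted p = 0.00803 and 0.0106). Hlf fell by 0.88 in untreated mice. Of 4 clock genes of the opposite phase, Nfil3 rose by 0.63 in MRL/lpr mice and none passed in treated mice. The time of day at which tissue was taken is not given in the sources used here. Between the lpr groups the median of the E-box list was 0.03 and none passed.

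Targets of these factors were described by a list of 20 activity-induced early genes and a list of 18 later CREB or MEF2 targets. Of the early genes, which include Fos, Arc, Egr1 and Npas4, 1 fell and none rose in treated mice against MRL/mpj, with a median log2 fold change of -0.00 (-0.004). That gene was Gadd45b, which acts in DNA demethylation and fell by 0.66 (limma voom with Benjamini-Hochberg adjustment, adjusted p = 0.0326). In MRL/lpr mice Gadd45b and the zinc finger gene Egr3 fell by 0.46 and 0.39, and the median was -0.26. Of the later targets 2 rose and 3 fell in treated mice, with a median of -0.08. Adcyap1, which encodes the peptide PACAP, and Pcsk1, a prohormone convertase, rose by 1.23 and 0.90. Nptx2, a synaptic pentraxin that clusters AMPA receptors, fell by 1.05 in treated and 0.88 in untreated mice, and Plk2, a kinase that weakens overactive synapses, by 0.67 and 0.98 (limma voom with Benjamini-Hochberg adjustment, adjusted p = 0.0234, 0.0363, 0.0292 and 0.0037 in that order). Mir22hg fell by 0.57 in untreated mice, from 28.0 ± 2.21 CPM in MRL/mpj to 18.9 ± 2.46 CPM, and its level in treated mice was alike at 19.2 ± 1.87 CPM (SD, n = 3 each). Between the lpr groups none of either list passed, with medians of 0.11 and 0.05. Over all lists, the genes with the smallest unadjusted p in this comparison included Hlf (0.54), Rora (0.38), Pde10a (0.35), Plk2 (0.32) and Dusp6 (0.27) on the positive side and Nfil3 (-0.54), Atf1 (-0.35) and Mapk7 (-0.29) on the negative side of the log2 fold change, and limma voom with Benjamini-Hochberg adjustment gave each an adjusted p of 0.921.

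These list counts hung on single libraries. With any one library dropped, the genes past an adjusted p of 0.05 against MRL/mpj numbered 0 to 8 in treated and 0 to 13 in untreated lpr mice among the CREB inputs, the highest counts being those without MRL/lpr+MSC replicate 1 and without MRL/lpr replicate 2. They numbered 0 to 4 in both among the MEF2 partners, 0 to 5 and 0 to 6 among the nuclear receptors, 0 to 2 in both among the other CREB family genes, 0 to 3 and 0 to 2 among the early genes and 0 to 7 and 1 to 5 among the later targets. The clock genes with E-boxes numbered 2 to 8 in both, and those of the opposite phase 0 to 1 and 0 to 2. Dropping any MRL/mpj library left no gene past among the MEF2 partners in either comparison.

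**Figure D3:**
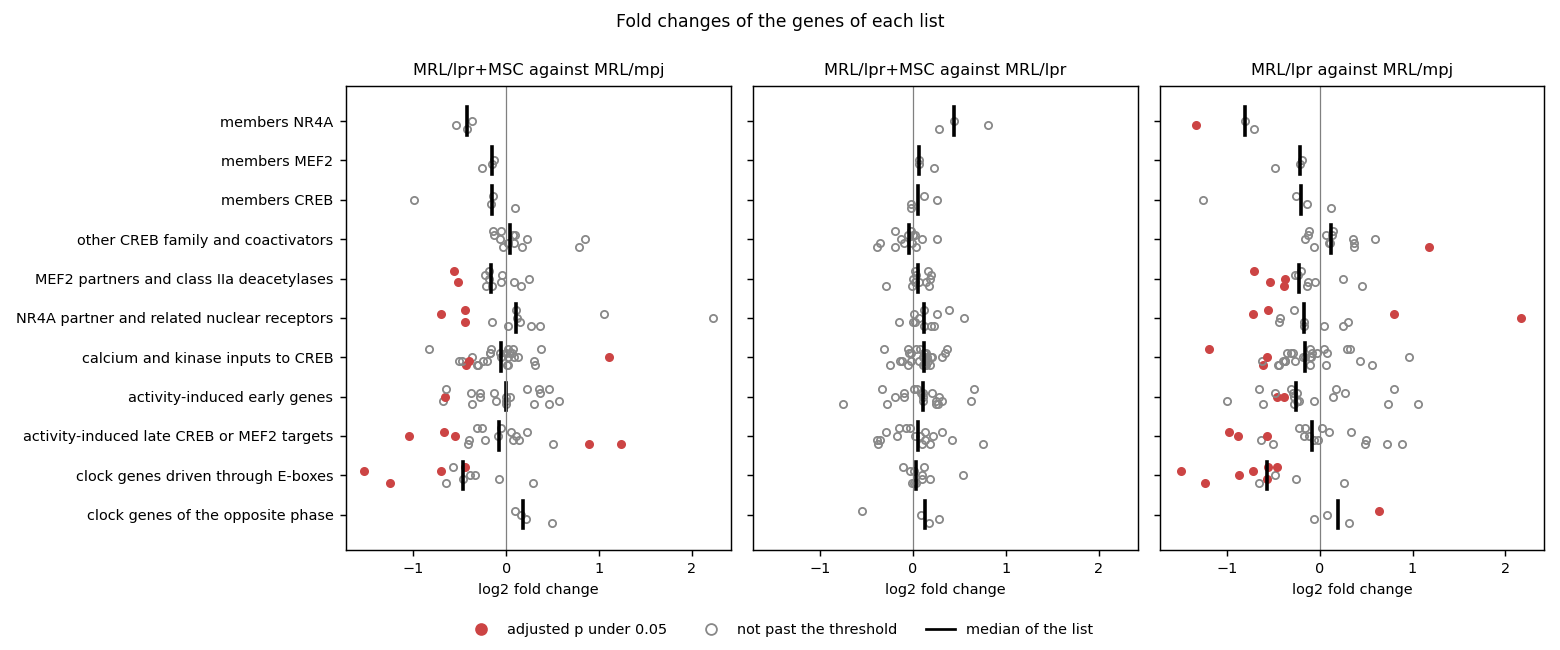
Log2 fold change (x axis) of every tested gene of each list (y axis) in the 3 comparisons, with filled points for an adjusted p under 0.05 and a line at the median of the list. The clock genes with E-boxes have medians of -0.47 and -0.56 against MRL/mpj and 0.03 between the lpr groups, where no point is filled.

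Markers of neighbouring regions differed between libraries, and among the treated libraries they moved with Nr4a2, which they did not among the MRL/lpr libraries. The summed CPM of 10 thalamic and habenular markers was 139, 354 and 544 in MRL/lpr+MSC replicates 1, 2 and 3, the reverse of the order of Nr4a2 and Nr4a3. It was 437, 182 and 617 in MRL/lpr and 143, 128 and 130.4 in MRL/mpj mice. Among the MRL/lpr libraries this sum ran in the reverse order of Nr4a3, Mef2a, Mef2d and Crtc1 and in the same order as Nr4a1. The remaining members followed neither order there. An order of 3 libraries carries no test. Zic1, a zinc finger factor, gave much of the thalamic and habenular sum. It had 11.1, 155 and 253 CPM in the treated libraries and 14.9 to 30.6 CPM in MRL/mpj mice. The markers did not all move together. In MRL/lpr replicates 1, 2 and 3 Calb2 had 94.3, 29.3 and 120 CPM, against 6.11 to 10.4 CPM in MRL/mpj mice. In the same libraries Tcf7l2 had 7.24, 6.64 and 7.44 CPM, against 5.42 to 7.34 CPM in MRL/mpj mice. Tcf7l2 had 5.45, 6.88 and 14.1 CPM in the treated libraries. From which region this RNA came was not tested. Gbx2, a defining marker of developing thalamus, was at 0 counts in 3 of the 9 libraries, and the remaining 9 markers were detected in all. Of the 9 that were tested, 1 (Calb2) rose in treated and none in untreated lpr mice against MRL/mpj. The summed CPM of 10 cortical layer markers, none at 0, ran the same way as Nr4a2, at 498, 297 and 259.8 in the treated libraries, 256, 294 and 247 in MRL/lpr and 351, 358 and 359 in MRL/mpj mice. Crym, a layer marker also present in the hippocampus, had 187, 50.8 and 36.1 CPM in the treated libraries and 97.3, 116 and 127 CPM in the controls.

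Markers of the hippocampus itself were detected in every library. The 6 matched CA1 pyramidal markers summed to 480, 610.2 and 464 CPM in the treated libraries, 459, 242 and 443 CPM in MRL/lpr and 651, 783 and 745 CPM in MRL/mpj mice, so both lpr groups lay below the controls. Of these 6 markers 1 fell in treated and 4 fell in MRL/lpr mice against MRL/mpj, beside 2.54% and 4.97% of all genes. Their median log2 fold changes were -0.47 and -1.17. For 8 dentate granule markers the sums were 315, 537 and 489.8, then 486, 874 and 417, and 692, 794 and 525 CPM in the same order of groups. Choroid plexus markers ranged from 235 to 6919 CPM in treated, from 278 to 13523 CPM in MRL/lpr and from 424 to 1293 CPM in MRL/mpj mice. When the treated group was reduced to the library with the lowest thalamic sum, replicate 1, the log2 fold change from MRL/mpj was 0.30 for Nr4a2 and 0.08 for Nr4a3, on the assumption that this library varies like the controls. When the MRL/lpr group was reduced in the same way to replicate 2, Nr4a2 stood at -1.37. These reductions rest on 1 library chosen after seeing the data and are a description. MRL/lpr replicate 2 had the lowest CA1 sum of the 9 libraries, 242 CPM. It also had the highest dentate and choroid plexus sums, 874 and 13523 CPM. MRL/lpr+MSC replicate 1 had the lowest dentate and choroid plexus sums, 315 and 235 CPM. Neither library was thus like the controls in all regional markers. The part of the regional markers in the values of the other members and of the pathway genes was not tested.

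**Figure D4:**
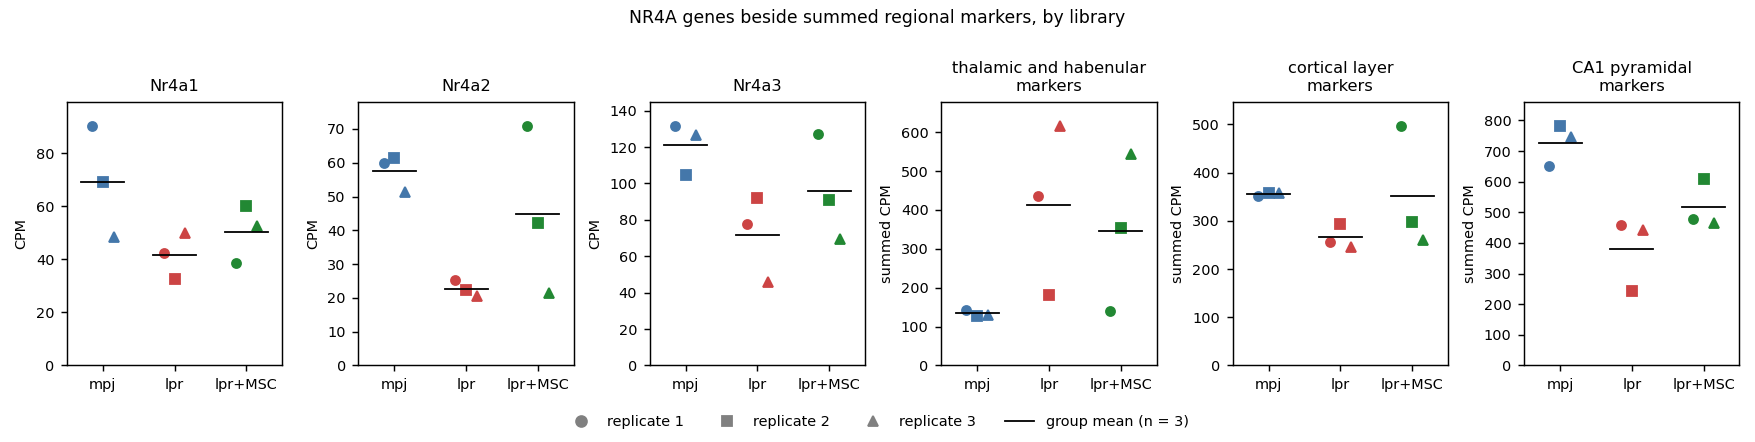
CPM of Nr4a1, Nr4a2 and Nr4a3 and summed CPM of thalamic and habenular, cortical layer and CA1 pyramidal markers (y axes, linear from 0) in the 9 libraries by group (x axis), with a symbol for each replicate number and a line at the group mean (n = 3). In MRL/lpr+MSC mice Nr4a2 goes from 71.0 to 21.5 CPM where the thalamic sum goes from 139 to 544 CPM, while MRL/lpr replicate 2 combines a thalamic sum of 182 CPM with 22.2 CPM of Nr4a2.

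Across the 9 libraries, which share their group differences and regional makeup, Nr4a2 and Nr4a3 followed each other closely (Pearson r = 0.843 of log2 CPM, n = 9) and Nr4a1 followed neither as closely (r = 0.436 and 0.208, n = 9). Nr4a3 was nearest to Mef2a (r = 0.936, n = 9) and Mef2d to Crtc1 (r = 0.965, n = 9), and Nr4a1 among the members was nearest to Crebbp (r = 0.821, n = 9). Creb1 had a negative r with each of the other 9 members. Among 14908 genes that averaged 1 CPM or more, the patterns most like Nr4a2 were those of Zfp365 (r = 0.987), Vip (0.976), Ccn3 (0.973), Mybpc1 (0.972) and Gm42847 (0.964), over 9 libraries. Ccn3 is the current symbol of Nov, a gene of the CA1 marker list that found no match under its older symbol. For Nr4a3 they included Fxyd7 (r = 0.990), Chrd (0.984), Pcmtd1 (0.981) and Exd2 (0.979). For Nr4a1 they were Pigf (r = 0.977), Lyve1 (0.938), Pcdhb17 (0.906), Dcbld1 (0.893) and Per1 (0.890). These genes were picked as the closest of 14908, so their r values are a description and carry no test.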

How the data were processed

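The authors aligned reads to GRCm38 and counted them per gene. Their methods name STAR 2.5.1b and HTSeq 0.6.0, whereas the labels name TopHat2. The deposited count matrix holds whole-number counts of 47643 genes in 9 libraries. The authors also deposited FPKM values of 28008 genes per library, used here only to compare levels between genes. Ensembl identifiers were matched to GENCODE GRCm38 symbols, and 47224 matched. The members and gene lists were chosen with earlier results of these data known.

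Counts were filtered (at least 3 libraries at the CPM equal to 10 counts in the median library, total at least 15), scaled by TMM and tested with limma voom 3.58.1 with robust moderation (statmod 1.5.0, R 4.3.3), each comparison on its own 6 libraries. P-values are two-sided and adjusted over all genes tested by Benjamini-Hochberg. Genes counted as differentially expressed had an adjusted p under 0.05 with 1.5-fold or more between groups. In the text "rose", "fell" and "passed" mean an adjusted p under 0.05. limma replaced the count test first chosen, because the columns of the matrix could not be registered as counts. Levels are CPM after TMM over all 9 libraries, and r values use log2 of CPM with a pseudocount of 0.5. The scripts were tested on simulated counts. A count of 3 corresponds to about 0.105 to 0.163 CPM. Intervals on fold changes are 95% and rest on 3 libraries per group.

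Genes named were all 10 members, Fas, up to 4 genes per pathway list and comparison with the largest change among those past an adjusted p of 0.05 (2 with the smallest p where none passed), the 5 genes most like each NR4A gene (1 of those for Nr4a3 is not reported here), and marker genes where a list moved with a result. Of 245 list genes, 244 matched. Promoter windows are RefSeq's, searched on both strands.

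Same-numbered libraries were checked for pairing through the correlation of their deviations from the group means. These were -0.06, 0.13 and 0.22 for MRL/lpr+MSC with MRL/mpj, -0.21, 0.25 and 0.40 for MRL/lpr+MSC with MRL/lpr, and -0.02, 0.13 and 0.06 for MRL/lpr with MRL/mpj. The numbers were therefore not taken as pairs. The alternatives were median-of-ratios size factors, dropping the filter, testing against 1.5-fold, fitting the 9 libraries together, blocking on the replicate number and leaving out 1 library at a time. limma-trend and the reduction of an lpr group to its library with the lowest thalamic sum were added after seeing the data.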

Additional observations from a re-analysis of the deposited data

How the results depend on the processing

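The value of each of the 10 members, the number of members that passed and the numbers of differentially expressed genes and of pathway list genes past an adjusted p of 0.05 were recomputed under the alternatives, whereas marker lists and groups without overlap were not. In the test against a 1.5-fold change, 1 clock gene with E-boxes passed in each comparison with MRL/mpj and no gene of the other pathway lists did. In MRL/lpr+MSC against MRL/lpr mice 0 genes and 0 members passed in all 12 other settings. Leaving out 1 library at a time turned the sign of values near 0, with ranges of -0.071 to 0.26 for Mef2c, -0.048 to 0.013 for Creb1, -0.04 to 0.022 for Crebbp and -0.14 to 0.77 for Creb3l3. In MRL/lpr+MSC against MRL/mpj mice the 556 differentially expressed genes became 100 in the test against a 1.5-fold change and 193 to 1514 with 1 library left out. The highest of these counts, 1091 higher and 423 lower, came without MRL/lpr+MSC replicate 1. The members that passed went from 0 to between 0 and 2, with 2 (Nr4a3 and Mef2a) without MRL/lpr+MSC replicate 1. With MRL/lpr+MSC replicate 1 as the only treated library, the log2 fold change of Nr4a2 was 0.30 and that of Nr4a3 0.077.

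In MRL/lpr against MRL/mpj mice the 967 differentially expressed genes became 104 in the test against a 1.5-fold change, 1705 with MRL/lpr replicate 2 alone and 165 to 1695 with 1 library left out. The 1 member that passed became 2 with no filter on low counts, 2 by limma-trend, 0 with all 9 libraries in one fit and 1 to 5 with 1 library left out, with 5 without MRL/lpr replicate 2 and 2 without MRL/lpr replicate 3. With MRL/lpr replicate 2 alone, the log2 fold changes of Mef2c, Mef2d and Crtc1 were 0.18, 0.06 and 0.023. The causes of these changes were not tested.

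With the replicate number as a block, which the labels do not describe as a pairing, the counts were 283 in MRL/lpr+MSC against MRL/mpj, 0 in MRL/lpr+MSC against MRL/lpr and 1127 for MRL/lpr against MRL/mpj, where 0, 0 and 1 members passed. DESeq2 and the edgeR fits listed as alternatives were not run, since the columns of the matrix could not be registered as counts, and the 1.5-fold test used limma instead. The 3 libraries per group limit the precision for every member except Creb3l3, which the low counts also limit.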

Other observations

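The summed CPM of 8 T and B lymphocyte markers was 0.981 to 1.85 in MRL/mpj, 5.54 to 17.1 in MRL/lpr and 1.25 to 3.98 in MRL/lpr+MSC mice, so that the untreated MRL/lpr libraries lay above all others. Against MRL/mpj, 5 of the 7 tested rose in MRL/lpr mice, beside 4.33% of all genes. In MRL/lpr+MSC against MRL/lpr mice all 7 tested had a negative log2 fold change and none passed, where 49% of all genes had a positive value. In MRL/lpr+MSC against MRL/mpj mice only 1 of the 8 passed the filter on low counts. Most of these markers were thus tested only where the MRL/lpr libraries, with the highest sums, were included. The filter therefore largely set the directions, which carry no test of their own. Oligodendrocyte markers summed to between 4507 and 8098 CPM in treated, 5290 and 10352 CPM in MRL/lpr and 8082 and 8757 CPM in MRL/mpj mice. Markers of CA2 and CA3 pyramidal cells summed to between 505 and 553 CPM in treated, 478 and 644 CPM in MRL/lpr and 542 and 706 CPM in MRL/mpj mice. Microglial markers summed to between 314 and 355 CPM in treated, 319 and 429 CPM in MRL/lpr and 362 and 400.3 CPM in MRL/mpj mice. Fibroblast and mesenchymal stromal markers summed to between 693 and 814 CPM in treated, 677 and 828 CPM in MRL/lpr and 816 and 908 CPM in MRL/mpj mice, of which Thy1, a gene that neurons also express, gave 463 to 709 CPM. Endothelial markers summed to between 331.5 and 368 CPM in treated, 319.7 and 334 CPM in MRL/lpr and 275 and 313 CPM in MRL/mpj mice, with the controls lowest. Sums of astrocyte, interneuron and striatal markers overlapped between all groups.

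The total CPM of the 3 NR4A genes was 237, 193 and 144 in MRL/lpr+MSC replicates 1, 2 and 3, 145, 147 and 116 in MRL/lpr and 282, 235 and 226 in MRL/mpj mice.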
